A study of Homo sapiens with 7 samples.

Results

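The 3 chromosome segments that are duplicated in the known karyotype of HCT116 cells carried 1937 of the 30840 deposited H3K4me3 regions (6.28%). Members were taken by position alone, as every region that starts beyond 70 Mb on chromosome 8, beyond 102 Mb on chromosome 10 or beyond 45 Mb on chromosome 17 of build hg19. The segment of 8q held 660 regions over 76.0 Mb, that of 10q held 447 over 33.4 Mb and that of 17q held 830 over 36.0 Mb. The other 2572 regions of the same 3 chromosomes, the 25587 regions of the other 19 autosomes and the 742 regions of the X chromosome served for comparison.

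H3K4me3 was mapped by chromatin immunoprecipitation and sequencing in HCT116, a human colon cancer line, in cells that lack KDM5A. These KDM5A-/- cells received an empty vector (EV), wild-type KDM5A or a mutant KDM5A, and were fixed 24 h after transfection. Each of the 3 conditions had 1 H3K4me3 library. Which residues differ in the mutant is not stated by the labels, and the series title names SMYD2, a lysine methyltransferase, as an enzyme that methylates KDM5A. All 3 groups share the knockout, so none shows the level of unmodified HCT116 cells.

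H3K4me3, the trimethylated form of lysine 4 on histone H3, sits over the start sites of active genes, and stronger promoters carry wider and taller domains of it. KDM5A belongs to the demethylases that take methyl groups off this residue. HCT116 is a near-diploid line whose few gained segments are well described, and it carries a single X chromosome. A region present in more copies gives more DNA to the immunoprecipitation, so a read count over a region depends both on its copies in the cell and on the mark on each copy.

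Values are RPM, reads per region scaled to a library total of 1000000, as the authors deposited them. The libraries held 10713021 reads (empty vector), 10852411 reads (wild-type KDM5A) and 9906508 reads (mutant KDM5A). A member had a median of 58, 61 and 52 reads in the same order. With 1 library per group no difference below has a replicate check, and none was tested. The input libraries were not used here, so copies of the DNA and mark per copy cannot be told apart.

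Members 2 to 4 kb wide had more H3K4me3 reads than other autosomal regions of that width. The median RPM of the 571 members 2 to 4 kb wide was 65.2 with the empty vector, 59.99 with wild-type and 55.3 with mutant KDM5A. The 7736 regions of this width on the other autosomes had medians of 48.6, 43.8 and 41.0 RPM, and the 721 on the rest of chromosomes 8, 10 and 17 had 48.3, 44.2 and 40.6 RPM. Members therefore stood at 1.34, 1.37 and 1.35 times the other autosomes, while the rest of their own chromosomes stood at 0.992, 1.01 and 0.989 times. The X chromosome lay on the opposite side at this width, at 28.2, 25.1 and 24.1 RPM, or 0.581, 0.573 and 0.587 times. At 1 to 2 kb it did not: 218 X regions had medians of 12.9, 11.7 and 10.5 RPM, or 1.77, 1.69 and 1.625 times.

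**Figure D1:**
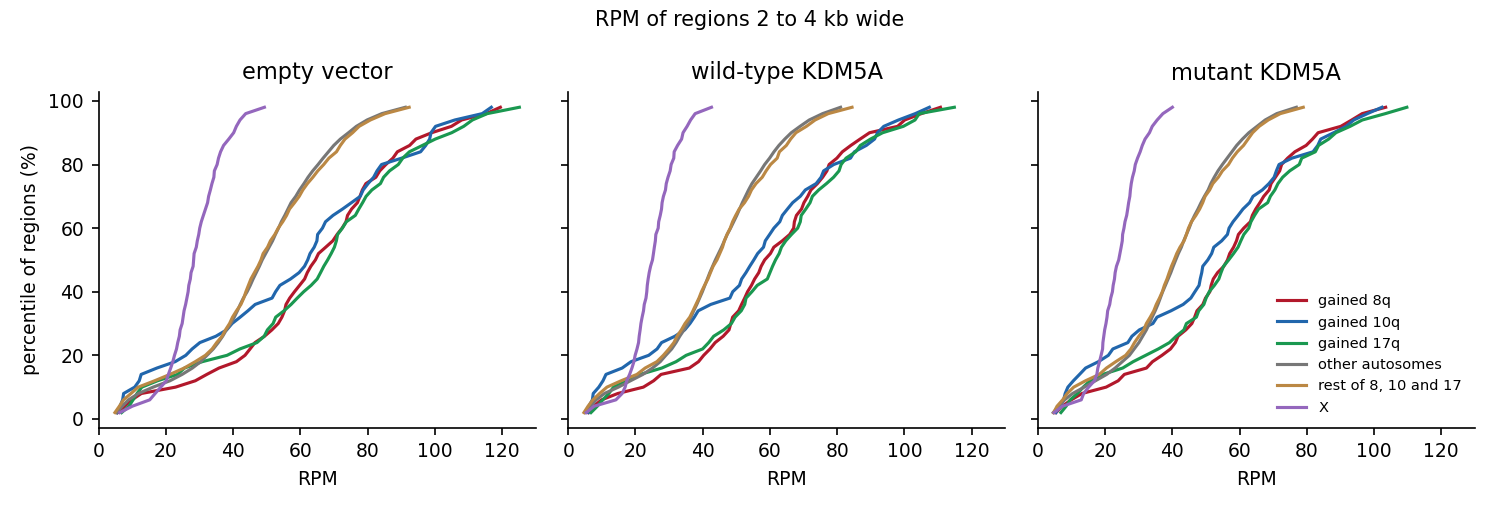
Cumulative curves of RPM (x axis) against the percentile of regions (y axis, %) for regions 2 to 4 kb wide, 1 panel per library. The curves of the 3 gained segments lie right of the other autosomes from the median upwards, with members' medians of 65.2, 59.99 and 55.3 RPM against 48.6, 43.8 and 41.0 RPM, and the X chromosome lies to the left at 28.2, 25.1 and 24.1 RPM.

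To use regions of every width, each RPM was divided by the median RPM of other-autosome regions in the same of 40 width bins, and the result is called the level at like width. In the library of the empty vector its median over all members was 1.28, in that of wild-type KDM5A 1.32 and in that of mutant KDM5A 1.29. On 8q the medians were 1.29, 1.33 and 1.29. Those of 10q were 1.24, 1.31 and 1.25, and those of 17q were 1.28, 1.33 and 1.32. The 3 segments thus lay close to each other in every library, and in all 3 libraries each segment was above each of the 19 other autosomes. The highest of those was chromosome 16, at 1.08, 1.06 and 1.06, and the SD over the 19 was 0.036, 0.025 and 0.022. The median over the rest of the same chromosomes was 1.00 in each library, and that of X was 0.721, 0.667 and 0.691.

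**Figure D2:**
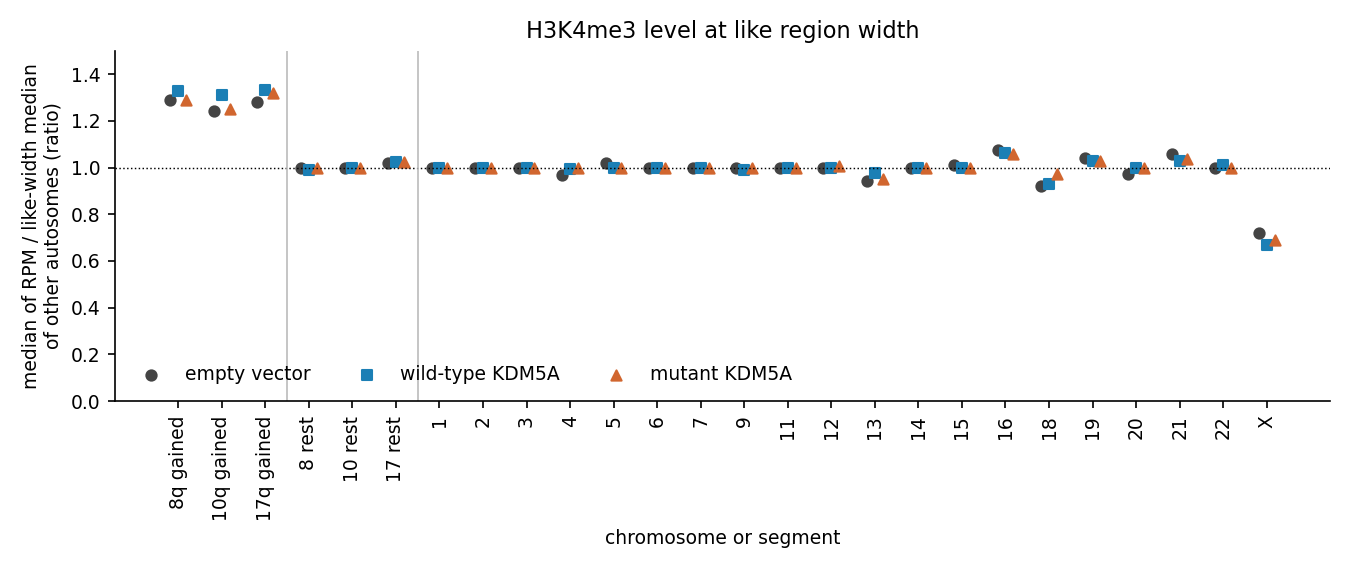
Median level at like width (y axis, ratio to the other autosomes) for the 3 gained segments, the rest of the same chromosomes, the 19 other autosomes and X (x axis), with 1 symbol per library. The gained segments sit between 1.24 and 1.33, the highest other autosome at 1.08 and X at or below 0.721.

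The shift was one of the distribution and not of every region. With the empty vector 64.6% of members were above the like-width median, where 49.3% of all regions were. Wild-type KDM5A gave 67.2% against 48.9%, and mutant KDM5A gave 67.7% against 48.9%. On the mean of the 3 libraries the quartiles of members ran from 0.930 to 1.65, so that many members lay at or under the level of other autosomes. Width is itself an outcome of peak calling, and a taller signal can be called wider, so matching on width compares members with regions that may differ in other ways.

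The low end of the distribution differed between segments. Among members 2 to 4 kb wide, the 75th percentile was 1.34, 1.37 and 1.36 times that of the other autosomes and the 90th percentile was 1.36, 1.39 and 1.41 times. The 10th percentile was 0.778, 0.883 and 0.920 times. On the rest of the same chromosomes, pooled, it was 0.726, 0.772 and 0.774 times, which came from the rest of chromosome 8 at 0.455, 0.525 and 0.533 times. The rest of chromosome 10 had 1.05, 0.979 and 1.004 times and that of chromosome 17 had 1.005, 1.07 and 1.01 times. The segments differed in this low tail: the 10th percentile of 8q was 22.9, 22.4 and 20.3 RPM, that of 10q was 10.7, 9.10 and 8.96 RPM and that of 17q was 12.8, 13.5 and 13.5 RPM. The other autosomes had 16.2, 14.9 and 13.8 RPM there, so 8q was raised at its 10th percentile too, whereas 10q and 17q were below the other autosomes there, 17q by least with mutant KDM5A.

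By width class, the level at like width of members under 1 kb was 1.27, 1.32 and 1.26, and that of members of 4 kb and over was 1.36, 1.43 and 1.38. The class of 1 to 2 kb was lower, at 1.12, 1.21 and 1.25. In this class 8q stood at 1.27, 1.49 and 1.37, 10q at 1.09, 1.06 and 1.21 and 17q at 1.05, 1.16 and 1.21. X had 0.913, 0.883 and 0.897. As a ratio of median RPM, the measure used above at 2 to 4 kb, members of this class stood at 1.01, 1.07 and 1.11. On 8q that ratio was 1.13, 1.29 and 1.23, and on 17q it was 1.03, 1.09 and 1.16. On 10q it was 0.808, 0.893 and 0.937, below the other autosomes. The class of 1 to 2 kb is where strong and weak regions mix most. The quartiles of other-autosome regions ran from 0.540 to 1.64 there with the empty vector, against 0.772 to 1.18 at 2 to 4 kb.

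On each chromosome the level was higher in the first window inside the boundary than in the last before it. In 5 Mb windows counted from each boundary, the last window before the boundary had a level at like width of 1.14 on chromosome 8, 1.14 on chromosome 10 and 1.12 on chromosome 17 (mean of the 3 libraries). The first window inside had 1.42, 1.32 and 1.32. Further in, the level varied on chromosome 8: the next window had 1.09 over 21 regions, below the window before the boundary, as were those from 20 to 25 Mb inside, with 1.13 over 39 regions, and from 55 to 60 Mb, with 1.09 over 90 regions, while the last had 1.51. The windows of 17q with 20 regions or more ran from 1.18 to 1.49. The windows from 10 to 5 Mb before the boundary had 1.10, 0.963 and 0.945. Just outside on chromosome 10, chr10:101987987-101990385 had 86.2, 71.0 and 79.8 RPM and a level at like width of 1.92, 1.75 and 2.10. The first region inside, chr10:102025915-102028461, had 81.3, 70.7 and 69.0 RPM and a level of 1.70, 1.67 and 1.74. On chromosome 17, chr17:44999381-45001725 just outside had 73.1, 66.4 and 68.5 RPM, at 1.75, 1.74 and 1.92, and chr17:45055239-45057153 just inside had 13.3, 11.2 and 9.39 RPM, at 0.458, 0.434 and 0.399. The nearest regions on chromosome 8 were narrow: chr8:69243168-69244212 outside had 2.80, 0.737 and 1.11 RPM, and chr8:70269326-70269639 inside had 1.12, 1.29 and 1.31 RPM. Single regions next to a boundary therefore do not place the step. On chromosomes 10 and 17 the region just inside had a lower level than the region just outside in every library.

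**Figure D3:**
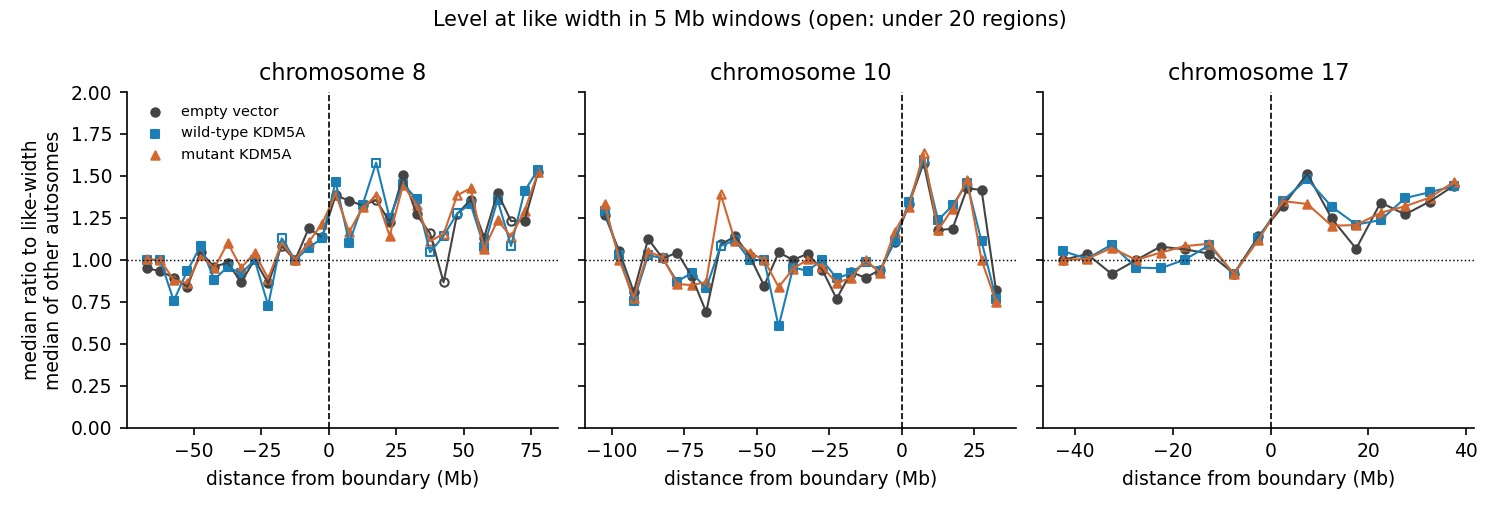
Median level at like width (y axis, ratio) in 5 Mb windows against the distance from the rule's boundary (x axis, Mb) on chromosomes 8, 10 and 17, with 1 line per library and open symbols for windows of under 20 regions. The level goes from 1.14, 1.14 and 1.12 in the window before the boundary to 1.42, 1.32 and 1.32 in the window after it, and on chromosome 10 it is down to 0.808 in the last window.

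Across the genome in fixed 10 Mb windows with 20 regions or more, 13 of 15 windows wholly inside the segments had a mean level of 1.2 or more, a limit chosen after the values were seen. Both windows that straddle a boundary passed it, as did 0 of 21 on the rest of the 3 chromosomes and 1 of 238 elsewhere. Library by library (empty vector, wild-type, mutant) the counts inside the segments were 11, 13 and 13. Straddling windows that passed numbered 1, 2 and 2, those on the rest of the chromosomes 0, 0 and 1, and those elsewhere 5, 1 and 1. Windows of 10 Mb can hide a shorter stretch. Outside the segment, the first 2 Mb of chromosome 10 had a mean level of 1.36 over 20 regions, within a 10 Mb window of 1.05. Directly before the boundary of chromosome 10, from 100 to 102 Mb, 31 regions had a mean level of 1.21. On the mean of the 3 libraries the window elsewhere was on chromosome 16 from 80 to 90 Mb, where 209 regions had a level of 1.29, 1.36 and 1.33 in the 3 libraries, as high as in the segments. The 6 highest of all 276 windows were inside the segments, led by 17q from 80 Mb on at 1.44, 1.44 and 1.46 over 42 regions. The lowest window of 8q, from 110 to 120 Mb with 20 regions, had 1.16, 1.19 and 1.21, and its mean level of 1.15 did not pass.

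The end of 10q was the exception. From 130 Mb to its last region, 55 members had a level at like width of 0.800, 0.707 and 0.750, and this window ranked 274 of 276. The 16 of them of 2 kb and over had median RPM of 27.6, 26.4 and 21.3, and 0 of the 16 had a mean level above 1. Regions of 2 kb and over at the same distance from the last region of the other autosomes (5.46 Mb, 660 regions) had 56.4, 50.7 and 46.4 RPM. The 392 members of 10q up to 130 Mb had a level of 1.302, 1.35 and 1.31, close to that of 8q and 17q. Over the same distance the ends of 8q and 17q had 1.37 and 1.38 (mean of the 3 libraries), and those of the other 19 autosomes ran from 0.900 to 1.32, so that 0 of the 19 lay below the end of 10q at 0.793. The split at 130 Mb was made after the values were seen, and this stretch is 1 place on 1 chromosome.

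Members took a larger share of the reads than of the territory. They made up 6.28% of regions and 6.39% of the covered length, and held 8.003% of the reads in regions with the empty vector (Wilson 95% interval 7.98 to 8.02%). The share was 8.16% (8.14 to 8.18%) with wild-type and 8.14% (8.11 to 8.16%) with mutant KDM5A. The interval of the empty vector does not overlap the others, while those of both forms of KDM5A overlap. Taken singly, 8q and 17q had this pattern and 10q did not. On 10q the interval was 1.667 to 1.685% with the empty vector. It overlapped those of wild-type (1.685 to 1.705%) and mutant KDM5A (1.682 to 1.703%). The rest of the same chromosomes, pooled, held 8.08% (8.06 to 8.10%), 8.11% (8.09 to 8.13%) and 8.10% (8.07 to 8.12%), with overlapping intervals for all 3 libraries. This pool joined opposite shifts. On the rest of chromosome 8 the empty vector (1.590 to 1.608%) lay below wild-type (1.620 to 1.639%) and mutant KDM5A (1.615 to 1.636%). The rest of chromosome 10 also had no overlap, with the empty vector lowest. On the rest of chromosome 17 the empty vector (3.619 to 3.646%) lay above mutant KDM5A (3.581 to 3.612%). A shift in share was therefore not particular to the segments. These intervals cover counting error only, and not the spread between cultures. Per kb of covered length members had 16.9972, 15.7 and 14.7 RPM, which was 1.26, 1.29 and 1.28 times the other autosomes.

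In make-up the members were much like other regions. Their median width was 1248 bp, against 1219 bp on the rest of the same chromosomes and 1267 bp on the other autosomes. Strong regions, with a mean of 20 RPM or more, were 34.8% of members and 35.5% of regions on the other autosomes. Middle regions, from 5 to 20 RPM, were 15.95% and 13.4%. The segments differed from each other: on 8q, 10q and 17q middle regions were 12.1, 15.9 and 19.0%. Weak regions, under 5 RPM, were 52.7, 52.3 and 44.7%, and the median widths were 1090.5, 1155 and 1368.5 bp. Spacing also set the segments apart: 8q had 8.68 regions per Mb and a median distance to the nearest region of 15.2 kb, 10q had 13.4 per Mb and 11.4 kb, and 17q had 23.1 per Mb and 8.08 kb. The level at like width was nonetheless within 1.24 to 1.33 in all 3.

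The strongest members were wide regions read in every library. On 17q, chr17:79366151-79374828 (8678 bp) had 220, 194 and 162 RPM in the order empty vector, wild-type, mutant. On 8q, chr8:146011441-146019452 (8012 bp) had 205, 181 and 170 RPM, and on 10q, chr10:104401519-104406889 (5371 bp) had 197, 169 and 162 RPM. Each was highest with the empty vector and lowest with mutant KDM5A, and stood at 2.20 to 2.53 times the like-width median. The widest member, chr17:48129790-48142530 (12741 bp), had 150, 144 and 135 RPM. Regions are given by position alone, since the annotation used here is of another build.

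**Figure D4:**
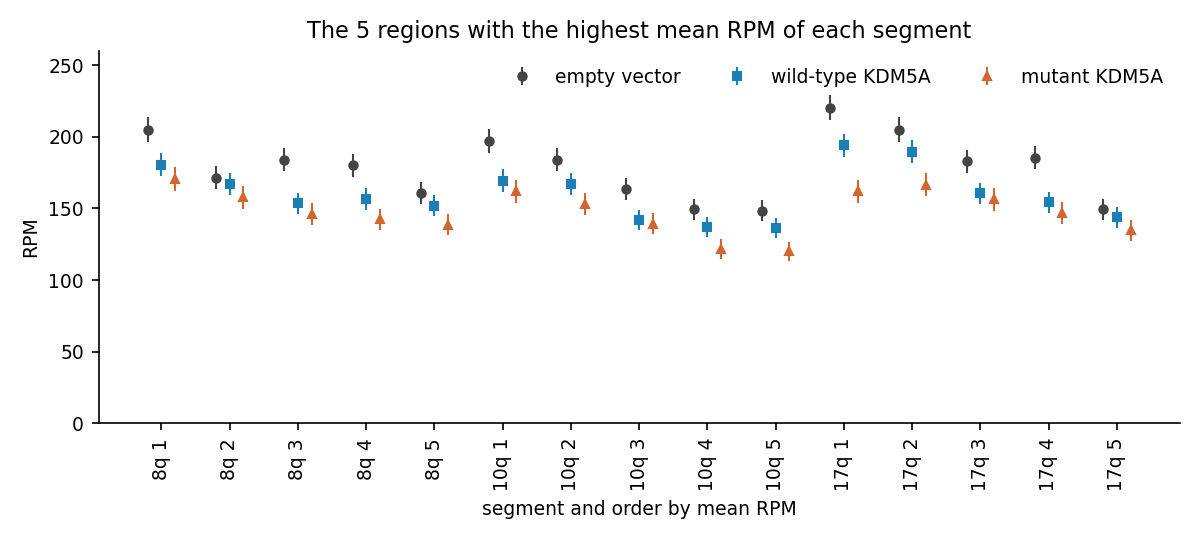
RPM (y axis) of the 5 regions with the highest mean RPM in each segment (x axis, ordered by mean RPM), with 1 symbol per library and bars for 95% counting intervals (normal approximation). The first region of each segment has 205, 181 and 170 RPM (8q), 197, 169 and 162 RPM (10q) and 220, 194 and 162 RPM (17q).

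Both forms of KDM5A went with lower RPM at strong regions of the segments, as elsewhere in the genome. Ratios between libraries are log2 of RPM plus 0.7, a scale that understates the change of weak regions. Over the 675 strong members the wild-type to empty vector ratio had a median of -0.13, with 89.2% below 0. For mutant KDM5A to empty vector it was -0.23, with 97.5% below 0, and for mutant to wild-type it was -0.10, with 83.0% below 0. The 9093 strong regions of the other autosomes had -0.15, -0.24 and -0.09. The first and second ratio share the empty vector library. Because RPM gives every library an equal total, less mark everywhere and fewer reads on target look alike. Regions of the whole table held 67.0% of the reads with the empty vector, 60.7% with wild-type and 56.9% with mutant KDM5A, in the same order as the RPM of strong members. The part of this share in the lower RPM was not tested. The other autosomes, all levels together, had median log2 ratios of -0.11, -0.19 and -0.08, and all members -0.08, -0.16 and -0.08. Once centred on the other autosomes, the members were at 0.03, 0.03 and -0.0035, so that the lower values with KDM5A are shared with the other autosomes.

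In order of level, the empty vector was highest at 594 of the 675 strong members (88.0%), against 90.6% of strong regions on the other autosomes. Empty vector above wild-type above mutant was the order at 491 members (72.7%), against 71.3%. This order was found at 166 of 232 strong members of 8q, 115 of 142 of 10q and 210 of 301 of 17q.

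At strong members the ratio of wild-type KDM5A to empty vector was slightly less negative than on other autosomes. It was -0.11 on 8q, -0.13 on 10q and -0.13 on 17q, where the 19 other autosomes ran from -0.17 to -0.12 with an SD of 0.012. The value of 8q was above all 19, and 10q and 17q were each above 18. The rest of chromosomes 8, 10 and 17 had -0.13, -0.14 and -0.16. The difference between members and other autosomes was 0.025, beside that SD of 0.012. It was not particular to the segments: the rest of chromosome 8, at -0.128, lay between 10q at -0.131 and 17q at -0.126. Its difference from the other autosomes was 0.023, and those of the rest of chromosomes 10 and 17 were 0.0068 and -0.0077. For mutant KDM5A to empty vector the strong members had -0.22 on 8q, above all 19 but no higher than the -0.22 of the rest of chromosome 8, -0.25 on 10q, below 13 of the 19, and -0.23 on 17q, above 16. The 953 weak members, under 5 RPM, had no common direction: the ratio of wild-type to empty vector was 0.04 on 8q, within the range of the 19, -0.03 on 10q, below all 19, and 0.14 on 17q, above all 19. For mutant to empty vector they had -0.02, -0.00063 and 0.07, all within the range of -0.05 to 0.07.

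Middle members showed a larger difference, but the other autosomes also spread more in this class. The difference was 0.100 for wild-type to empty vector and 0.095 for mutant to empty vector, beside SDs over the 19 of 0.042 and 0.045. Over the 309 middle members the median ratio of wild-type to empty vector was 0.03 on 8q, -0.02 on 10q and -0.02 on 17q. The 19 other autosomes ran from -0.21 to -0.04. For mutant KDM5A to empty vector the values were -0.11, -0.12 and -0.08, and the other autosomes ran from -0.29 to -0.14. In both ratios, which share the empty vector, each segment lay above all 19. This was not particular to the segments, since the rest of chromosome 17 had -0.03 and -0.14, also above the highest of the 19, while the rest of chromosome 8 had -0.10 and -0.18 and that of chromosome 10 had -0.05 and -0.15. For mutant to wild-type KDM5A the segments had -0.12, -0.04 and -0.07, and the other autosomes ran from -0.20 to -0.04, with 10q just above the highest of them. The classes of level are cut from the same RPM, so a raised level can move a region to another class. Of middle members 14.6% were under 1 kb, against 9.91% on the other autosomes. At 2 kb and over were 24.9%, against 24.7%, with 18.75% on 8q, 33.8% on 10q and 24.1% on 17q. With classes of width in place of level, an alternative chosen after the values were seen, the difference from the other autosomes for wild-type to empty vector was 0.071 at 1 to 2 kb and 0.031 at 2 to 4 kb. For mutant to empty vector it was 0.042 and 0.023, and for mutant to wild-type it was -0.013 and 0.00077.

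**Figure D5:**
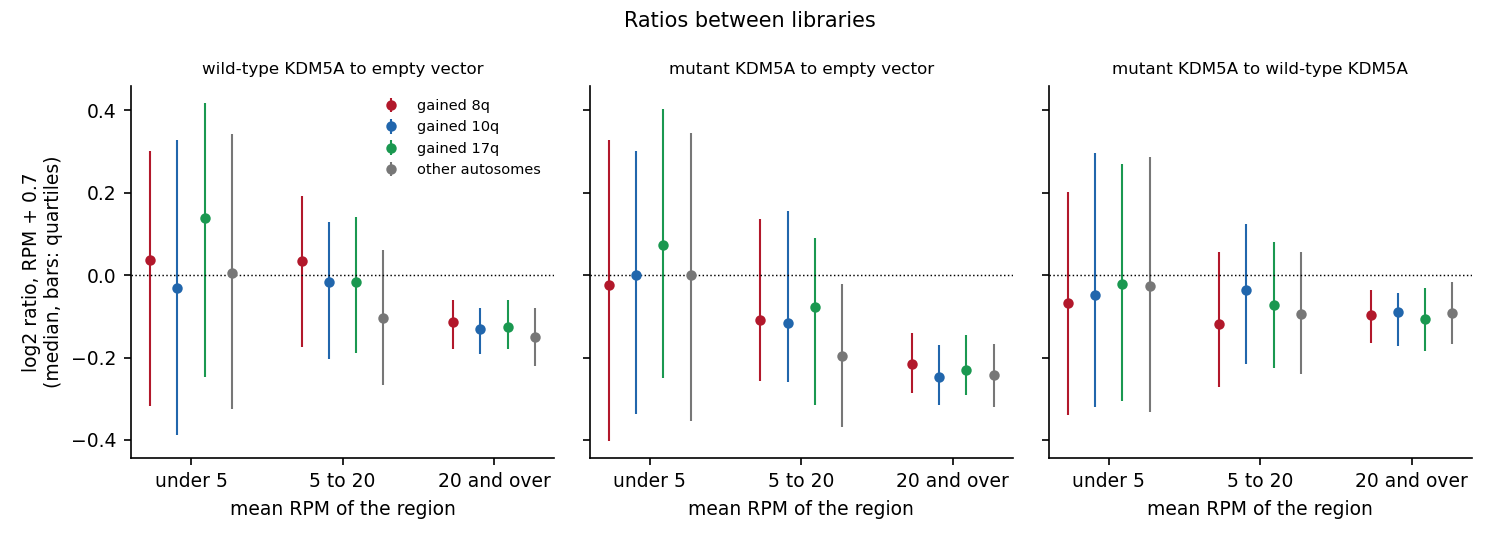
Log2 ratios between libraries (y axis, RPM plus 0.7) by the region's mean RPM (x axis) for the 3 segments and the other autosomes, with points for medians and bars for quartiles. In the middle class the segments have 0.03, -0.02 and -0.02 for wild-type to empty vector, above the -0.10 of the other autosomes, and in the strong class all sets lie between -0.11 and -0.25 for either form of KDM5A to empty vector.

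Few members of sizeable signal passed 1.5-fold. Of all 1937, 97 were at least 1.5-fold lower with wild-type KDM5A than with the empty vector (5.01%, against 6.53% of all regions) and 126 higher (6.50%, against 6.23%). With mutant KDM5A 129 were lower (6.66%, against 8.15%) and 120 higher (6.20%, against 6.61%). From wild-type to mutant, 84 were lower (4.34%, against 5.45%) and 69 higher (3.56%, against 5.19%). Centred on the other autosomes, 64 were lower (3.30%, against 4.47% of all regions) and 180 higher (9.29%, against 8.95%) with wild-type KDM5A. With mutant KDM5A 75 were lower (3.87%, against 4.31%) and 230 higher (11.9%, against 11.5%), and from wild-type to mutant 65 were lower (3.36%, against 3.91%) and 100 higher (5.16%, against 6.63%). Centring moves all regions alike. Most of these regions hold few reads. Among the 984 members of 5 RPM or more, 6 were lower and 6 higher with wild-type KDM5A, or 0.610% each, where 0.959% and 0.311% of all such regions were. For mutant KDM5A to empty vector 13 were lower (1.32%, against 2.17%) and 6 higher (0.610%, against 0.271%). From wild-type to mutant, 0 were lower, against 0.529%, and 2 were higher (0.203%, against 0.119%). All of these shares rest on few regions.

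Set against the empty vector, the 3 members of 17q and the 2 of 10q that were lowest with wild-type KDM5A were wide regions of low level. The next lowest of 10q and the 3 lowest of 8q were narrower and, with the empty vector, above the like-width median. On 17q, chr17:59474470-59478483 (4014 bp) had 14.2, 6.27 and 6.26 RPM, which is 152, 68 and 62 reads. It was highest with the empty vector, and the ratio of wild-type to empty vector was 0.442 (exact 95% counting interval 0.327 to 0.592). Its level at like width was 0.188 with the empty vector. A second, chr17:71638966-71641341 (2376 bp), had 9.61, 4.61 and 3.53 RPM, and its ratio of mutant to empty vector was 0.367 (0.243 to 0.544). Another, chr17:47072789-47077310 (4522 bp), had 18.3, 9.21 and 10.1 RPM. In each case both forms of KDM5A were near each other and below the empty vector. On 10q the same shape was seen at chr10:119301155-119304303 (3149 bp), with 11.9, 5.90 and 5.96 RPM, and at chr10:116852191-116854215 (2025 bp), with 17.4, 9.40 and 9.29 RPM. On 8q 0 members of 5 RPM or more were 1.5-fold lower with wild-type KDM5A. The lowest ratio there was at chr8:79428020-79429429 (1410 bp), with 14.7, 9.86 and 11.3 RPM, a ratio of 0.673 (0.521 to 0.866) and a level at like width of 2.07 with the empty vector. The other 2 lowest of 8q, chr8:143533770-143534766 (997 bp) and chr8:120189217-120190144 (928 bp), had levels of 2.40 and 3.41. On 10q, chr10:105455707-105457118 (1412 bp) had 8.68, 5.71 and 7.77 RPM and a level of 1.22. These regions were picked for their ratios, so the ratios are a description.

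Higher values with KDM5A were likewise seen at regions of few reads. The region chr17:55952116-55953888 (1773 bp) had 3.83, 7.10 and 6.66 RPM, or 41, 77 and 66 reads, a ratio of wild-type to empty vector of 1.85 (1.25 to 2.78). At chr10:104393293-104395030 (1738 bp) the values were 3.08, 5.53 and 6.46 RPM, and the ratio of mutant to empty vector was 2.10 (1.36 to 3.30). The member of 8q with the highest ratio of wild-type to empty vector, chr8:126136813-126138758, had 4.67, 7.65 and 6.16 RPM, a ratio of 1.64 (1.14 to 2.38). Between both forms of KDM5A the highest ratios were on 10q: chr10:112169395-112171621 had 4.85, 4.98 and 8.28 RPM and chr10:123900227-123901700 had 6.44, 5.16 and 8.58 RPM, each with a ratio of mutant to wild-type of 1.66. They were the only 2 members of 5 RPM or more past 1.5-fold in that comparison.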

How the data were processed

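The authors deposited 1 table of 30840 regions with the RPM of 3 H3K4me3 libraries, and per the submitters' processing notes deepTools 3.5.6, HOMER, MACS2, MACS and Bowtie2 2.5.4 were used upstream, with build hg19. The sources used here do not say how regions were called or reads counted. The empty vector column is headed H3K4me4, read as a slip. Starts are printed 1-based. The series has 7 samples, and the 3 input libraries and 1 IgG library were not analysed here. Unused value columns numbered 0.

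Every RPM was a whole multiple, within 0.02 reads for 100% of values, of a step of 0.0933, 0.0921 and 0.101 RPM. Reads recovered from these steps gave library totals and intervals. At 0 reads up to 3 reads are allowed for (0.280, 0.276 and 0.303 RPM), and 3, 1 and 1 members were at 0. Whether PCR copies were removed before counting is not stated, so these limits hold for counting error alone.

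Regions of the other autosomes were put in 40 bins of width, and each RPM was divided by its bin's median. Many narrow regions hold few reads, so their values tie and medians of 1.00 recur. Log2 ratios used a pseudocount of 0.7 RPM. No model was fitted with 1 library per group. The steps were tested on simulated data. For the level at like width the simulated regions had the same spread at every width, unlike the mix of strong and weak regions at 1 to 2 kb.

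Named regions were, per segment, the 5 with the highest mean RPM, the 2 widest, the 3 highest and 3 lowest of each ratio at 5 RPM or more, and those beside each boundary, of which the text gives those that carry a result. Members, lists and tests were chosen with earlier results of these data known. Gene lists and cell type markers were not analysed here, since the RefSeq tables used here are of GRCh38 and the regions of hg19, so the colon line was not checked against its markers. The alternatives changed the matching, the boundary, the reference set, the pseudocount, the centring and the threshold. The tools were pandas 2.3.3, numpy 2.4.6, statsmodels 0.14.6, scipy 1.17.1 and matplotlib 3.10.9 under Python 3.11.15.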

Additional observations from a re-analysis of the deposited data

How the results depend on the processing

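The level at like width stayed above 1 in all 60 combinations of result and alternative run, from 1.04 to 1.36, and 35 of the 60 moved by less than the SD over the other autosomes. For all members with the empty vector, wild-type and mutant KDM5A it was 1.23, 1.27 and 1.24 among the stronger regions (mean RPM of 4.70 or more, the median), 1.33, 1.36 and 1.34 among regions of 2 kb and over, and 1.11, 1.19 and 1.15 as RPM per kb with no width matching. It was 1.32 (empty vector) and 1.33 (mutant) with 4 width classes, 1.31 (mutant) with distance to the nearest region matched too, and 1.29 (wild-type) and 1.26 (mutant) with boundaries 5 Mb nearer the chromosome start. For 8q, 10q and 17q on the mean of the libraries, 4 width classes gave 1.35, 1.22 and 1.36, and the stronger regions gave 1.27, 1.16 and 1.25. Regions of 2 kb and over gave 1.31 on 10q and 1.36 on 17q, RPM per kb gave 1.12 on 8q and 1.04 on 10q, and 10q without its members from 130 Mb on, an alternative chosen after seeing the data, gave 1.31. The share of reads was 9.20, 9.36 and 9.35% with boundaries 5 Mb nearer the start, 6.44, 6.58 and 6.55% with boundaries 5 Mb nearer the end, since 2216 and 1616 regions are then members, and 8.14, 8.30 and 8.27% over autosomes only. The median log2 ratios over all members (wild-type to empty vector, mutant to empty vector, mutant to wild-type) were -0.061, -0.12 and -0.063 with a pseudocount of 3.5 RPM and -0.11, -0.21 and -0.093 among the stronger regions. Centred on the other autosomes they were 0.030, 0.026 and -0.0035, and with the lowess trend removed 0.039, 0.024 and -0.0063, so the first 2 reversed, as both alternatives take out the shift that all regions share. Their difference from the other autosomes moved by less than the SD in the 21 cases that could change it, since centring leaves it as it was. Counts past 1.5-fold, lower and higher in the same order of ratios, were 172 and 206, 208 and 207, and 167 and 154 with a pseudocount of 0.07 RPM. With 3.5 RPM they were 13 and 1, 15 and 2, and 1 and 1, and among the stronger regions 6 and 9, 14 and 9, and 2 and 3. A 2-fold threshold left 21 and 19, 25 and 16, and 13 and 14. Centred, 64 were lower with wild-type KDM5A, and 75 lower and 230 higher with mutant KDM5A. The counts follow the weak regions, where few reads limit the precision. No paired analysis was possible because each group has 1 library, and for the same reason no replicate could be left out.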
